A study of Mus musculus with 2 samples.

Results

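The cells described here were picked out of an F4/80-enriched mouse spleen preparation as candidate granulocyte-monocyte progenitors, and 80 of 31699 kept barcodes met the rule. A barcode was kept with 500 to 5000 detected genes and under 15% of its unique molecular identifiers (UMIs, the tags that count single RNA molecules) from mitochondrial genes. It was then selected if Vcam1 and Spic together made up under 0.5% of its UMIs and at least 3 of Mpo, Elane, Prtn3, Ctsg and Ms4a3 had a UMI. The cells were thus chosen by measured values, and the level of these genes in the selected cells is a description and no finding. Of the 80 cells, 77 came from the library labelled wild-type, of 19419 kept barcodes, and 3 from the library labelled SCD, of 12280.

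Sickle cell disease (SCD) mice of the Berkeley model were compared with control littermates, 1 spleen library each, by droplet-based single-cell RNA sequencing. The spleens were freed of red cells by lysis and enriched with beads carrying an antibody to F4/80, a macrophage surface protein. The SCD mice are homozygous for the alleles Hbatm1Paz and Hbbtm1Tow, which remove mouse alpha- and beta-globin, and homozygous for the transgene Tg(HBA-HBBs)41Paz, which carries human globin genes with the sickle mutation. The mouse labelled wild-type is not free of these alleles: it is homozygous for Hbatm1Paz, heterozygous for Hbbtm1Tow and hemizygous for the same transgene. The mice were 12 to 16 weeks old and received no treatment. With 1 library per genotype no difference between the mice could be tested, and every interval given covers counting error only. The mouse behind each library is known from its label alone, and globin transcripts went against both labels: in kept barcodes with at least 3 erythroid markers, the mouse beta-globin gene Hbb-bs stood at 110 counts per 1000000 UMIs (CPM) over 5614 barcodes labelled wild-type and at 55491 CPM over 457 barcodes labelled SCD, and Hba-a1 stood at 20447 and 27809 CPM. The libraries are therefore named by their labels throughout and no direction between genotypes is drawn. They held 145953464 UMIs in 24144 barcodes and 73986356 UMIs in 15442 barcodes. They shared 107 barcode sequences, of which none was that of a selected cell.

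Granulocyte-monocyte progenitors are dividing cells, best known from bone marrow, that give rise to neutrophils and monocytes. On the way to a neutrophil, a cell first makes the proteins of the primary (azurophil) granules, then those of the secondary granules, and stops dividing before it is mature. Mpo encodes myeloperoxidase, Elane, Prtn3 and Ctsg encode the serine proteases neutrophil elastase, proteinase 3 and cathepsin G, all stored in primary granules, and Ms4a3 encodes a membrane protein of early granulocyte and monocyte precursors.

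Elane and Prtn3 are neighbors on chromosome 10, where Elane (79886247 to 79888215) starts 3073 bases after the annotated end of Prtn3 (79874476 to 79883174), both on the plus strand of GRCm38 in the GENCODE annotation. Mpo lies on chromosome 11 (87793581 to 87804413, plus strand), Ctsg on chromosome 14 (56099881 to 56102574, minus strand) and Ms4a3 on chromosome 19 (11629496 to 11640851, minus strand). Because these genes were detected together by construction, upstream sequences of Mpo, Elane, Prtn3 and Ctsg are shown from RefSeq (GRCm38.p6). Each is read 5′ to 3′ on the strand of the gene, as far as no annotated exon was reached. The capitals mark GAGGAAG, a core sequence bound by the myeloid factor PU.1. The Ms4a3 window, which does not hold GAGGAAG, is not printed.
Mpo, chr11:87793534-87793580: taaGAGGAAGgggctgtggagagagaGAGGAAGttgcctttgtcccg
Elane, chr10:79886062-79886246: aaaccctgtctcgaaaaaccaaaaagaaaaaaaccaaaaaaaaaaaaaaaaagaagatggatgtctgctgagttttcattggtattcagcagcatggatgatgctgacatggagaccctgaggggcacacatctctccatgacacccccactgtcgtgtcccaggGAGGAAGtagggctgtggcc
Prtn3, chr10:79879417-79879613: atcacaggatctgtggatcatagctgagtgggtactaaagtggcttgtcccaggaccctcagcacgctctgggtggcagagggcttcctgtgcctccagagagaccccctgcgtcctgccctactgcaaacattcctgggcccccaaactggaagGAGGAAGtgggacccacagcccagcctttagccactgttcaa
Ctsg, chr14:56102575-56102824: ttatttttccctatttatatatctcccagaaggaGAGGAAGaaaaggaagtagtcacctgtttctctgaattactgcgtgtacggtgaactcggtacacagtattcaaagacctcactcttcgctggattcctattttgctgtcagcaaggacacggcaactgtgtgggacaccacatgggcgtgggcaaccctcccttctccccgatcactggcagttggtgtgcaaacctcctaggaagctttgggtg
The stretch before Prtn3 lies within the annotated gene, between exons. In the whole window of 250 bases before the RefSeq start, searched on both strands, GAGGAAG occurred 2 times for Mpo, 1 time each for Elane, Prtn3 and Ctsg, and was not among the letters of the Ms4a3 window, whereas 10.6% of 32851 RefSeq promoter windows held it. The sequence AACGG, part of a MYB site, lay before Elane and Prtn3 (14.5% of windows), and TTNNGNAA, a pattern of C/EBP sites, lay only before Ms4a3 among the 5 genes (36.8% of windows). The motifs were chosen after the sequences had been seen, and a match is a description of letters, not of binding.

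The 5 genes differed in how many of the 77 cells carried them. Prtn3 had a UMI in 76 cells (lowest 0, median 10, highest 174 UMIs), Elane in 74 (0, 4 and 294) and Mpo in 70 (0, 3 and 245), whereas Ctsg had one in 38 (median 0, highest 20) and Ms4a3 in 24 (median 0, highest 18). Their summed levels were 1547 CPM for Mpo (95% Poisson interval 1470 to 1626), 1367 for Prtn3, 1189 for Elane, 130 for Ctsg and 91.6 for Ms4a3. The level was uneven: 2 cells, with 3.25% and 3.51% of their UMIs from the 5 genes, held 30.7% of the Mpo UMIs and 36.9% of the Elane UMIs, while the median cell had 0.150%. At the threshold, the 37 cells with exactly 3 of the genes had Mpo at 162 CPM and Prtn3 at 545 CPM, and the 84 barcodes just outside, with 2 of the genes, had 31.1 and 206 CPM. Of those 84 barcodes, 62 carried at least 3 monocyte genes of the kind described below.

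**Figure D1:**
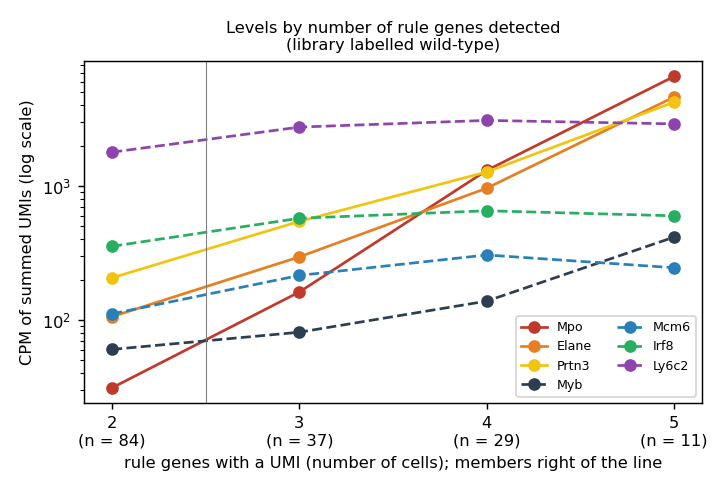
CPM of summed UMIs (log scale) in barcodes of the library labelled wild-type, by how many of the 5 selecting genes had a UMI; solid lines are selecting genes, dashed lines are other genes, and barcodes right of the vertical line were selected. From 2 genes to 5, Mpo, itself a selecting gene, goes from 31.1 to 6589 CPM and Myb from 60.1 to 415 CPM. Over the same range Irf8 goes from 355 to 599 CPM and Ly6c2 from 1791 to 2913 CPM.

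Myb, a transcription factor of dividing hematopoietic precursors, stood at 80.8 CPM in the cells with 3 of the selecting genes, 138 CPM with 4 and 415 CPM with 5. Irf8, a factor of monocyte and dendritic cell development, stood at 574, 653 and 599 CPM in the same cells. Of the 61 Myb UMIs in the cells with 5 genes, 41 lay in 3 cells described singly below, and without these Myb stood at 199 CPM and Irf8 at 866 CPM. Without 1 such cell, Myb stood at 56.2 CPM in the cells with 3 genes.

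Monocyte genes were common in the selected cells. In the library labelled wild-type, 61 of the 77 were among the 1710 low-Vcam1 and low-Spic barcodes with at least 3 of Ly6c2, Ccr2, F13a1, Vcan and Fn1, of which they were 3.57% (exact binomial interval 2.74 to 4.56, median 7016.5 UMIs). Free RNA enters every droplet, so barcodes of cells that should lack the selecting genes are set beside this share. They cannot show how often a monocyte shared a droplet with a cell rich in these genes, which was not tested. At least 3 of the 5 genes were found in 3 of 1004 barcodes with at least 3 of the B lymphocyte genes, among them Cd79a, Cd79b and Ms4a1 (0.299%, 0.0617 to 0.871, median 3746.5 UMIs) and in 3 of 8554 barcodes with Vcam1 and Spic at or above the limit (0.0351%, median 3907.5 UMIs). With every barcode thinned to 2000 UMIs, the shares were 1.42% (0.911 to 2.10, n = 1691), 0.128% (0.00323 to 0.709, n = 784) and 0.0326% (n = 6139), with 19, 220 and 2415 shallower barcodes left out. The selected cells held 90.7% of all Mpo UMIs of the kept barcodes, 90.8% of Ctsg, 84.8% of Elane, 62.6% of Prtn3 and 46.4% of Ms4a3. As the cells were chosen by these genes, these last shares follow in part from the rule and are a description only.

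The selected cells were among the deeper barcodes. They had a median of 13071 UMIs and 3996 genes (lowest 1761 UMIs and 1081 genes, highest 21293 and 4996), against 6784 UMIs and 2671 genes in the 1587 monocytes of the same library. Monocytes here are kept barcodes, also low in Vcam1 and Spic, with under 3 of the selecting genes and at least 3 of the 5 monocyte genes named above. The comparison groups chosen in the same way were 114 neutrophils (at least 3 of Cxcr2, Retnlg, Mmp8, Mmp9 and Csf3r, median 4361.5 UMIs) and 950 B lymphocytes (median 3502.5 UMIs). The upper limit of 5000 genes removed 31 further barcodes with at least 3 of the selecting genes, which had a median of 24039 UMIs, and 27 of them carried at least 3 monocyte genes.

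The label of progenitors was met in part. Cd34, a surface protein of stem and progenitor cells, had 14 UMIs in 9 of the 77 cells, or 14.1 CPM (7.70 to 23.6), against 0.570 CPM in monocytes. Kit, the stem cell factor receptor, had 21 UMIs in 13 cells, or 21.1 CPM (13.1 to 32.3), which overlapped the 18.1 CPM of the monocytes (15.8 to 20.6) and was below the 38.3 CPM of the B lymphocytes. Flt3 had 2 UMIs. Only 2 cells held UMIs of both Cd34 and Kit. Of the stem cell markers, Mecom and Procr were at 0 in all 77 cells, Meis1 had 6 UMIs, Tal1 was 1.54 lower than in monocytes on the log2 scale, and Hlf had 8 UMIs in 5 cells and none among the 12281919 UMIs of the monocytes. Transcripts of the monocyte and neutrophil lineages were far more abundant, as the next paragraphs describe, so the cells are called by the rule and not by the progenitor name. Genes of mature monocytes and neutrophils were mostly low, as described further below.

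**Figure D2:**
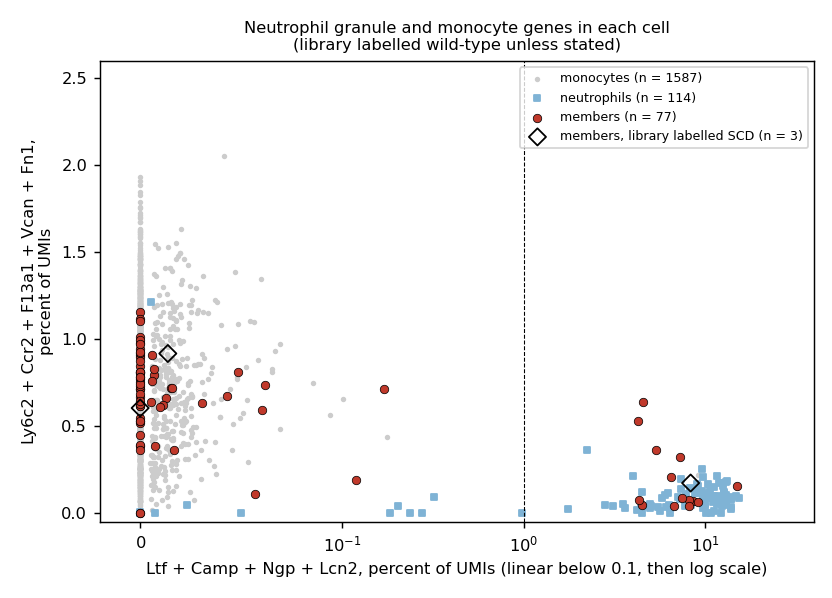
Each point is a cell: share of its UMIs from 4 secondary granule genes (horizontal, percent, linear below 0.1 and log above) and from 5 monocyte genes (vertical, percent), for selected cells, monocytes and neutrophils of the library labelled wild-type and the 3 selected cells of the library labelled SCD. No selected cell lies between 0.170% and 4.28% on the horizontal axis; 63 lie below and 14 above, among the neutrophils.

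The 77 cells fell into a larger and a smaller set by their secondary granule genes. Ltf (lactoferrin), Camp (cathelicidin), Ngp (neutrophilic granule protein) and Lcn2 (lipocalin 2) together made up 0% to 0.170% of UMIs in 63 cells and 4.28% to 14.9% (median 6.99%) in the other 14. This division, at 1% of UMIs, was made after the values were seen, and no cell lay between 0.5% and 2%. It is a description and carries no test.

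Monocyte transcripts were found in nearly all of the 63 cells with little secondary granule RNA. At least 3 of the 5 monocyte genes had UMIs in 59 of them, and these genes made up a median of 0.722% of their UMIs (highest 1.16%). Ly6c2, the surface protein of classical monocytes, had a median of 40 UMIs a cell (0 to 85) and a UMI in 61 cells. F13a1, a coagulation factor chain made by monocytes, had a median of 20 (0 to 56) and Ccr2, the chemokine receptor with which monocytes leave the marrow, a median of 13 (0 to 44), each in 59 cells. Irf8 was found in 58, Klf4, a factor of monocyte development, in 57 and Csf1r, the receptor for macrophage colony-stimulating factor, in 52. Gfi1 and Cebpe, factors of granulocyte development, were found in 5 and 18 cells. Primary granule and monocyte transcripts thus lay in the same barcodes, of which 7 of 63 were in the highest 10% of doublet scores from Scrublet, a program that scores barcodes by likeness to simulated pairs of cells.

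The 14 cells with secondary granule RNA carried genes of neutrophil development and some of the monocyte genes. Ngp had 171 to 674 UMIs a cell (median 373.5) and Camp 151 to 484 (median 210). Cebpe was present in 14 of 14 cells, Fcnb, a ficolin gene of early neutrophils, in 14 (7 to 41 UMIs), and Gfi1 in 8, while F13a1 was found in 2, Klf4 in 2, Ccr2 in 3, Csf1r in 5 and Irf8 in 7. Ly6c2 was present in 14 of 14, with a median of 10.5 UMIs (5 to 43). Elane was found in 14 cells and Ms4a3 in 12, but Ctsg in 3. Ms4a3 was at 214 CPM here and at 65.8 CPM in the 63 cells, whereas Ctsg was at 17.4 and 153 CPM and Mpo at 510 and 1765 CPM. Of the Ms4a3 UMIs in the 63 cells, 2 cells held 64.8%. The 2 cells of this set with at least 10 UMIs of Ccr2 and F13a1 together carried all 5 monocyte genes, and both were among the 5 of 14 with Scrublet scores in the highest 10% of the library.

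**Figure D3:**
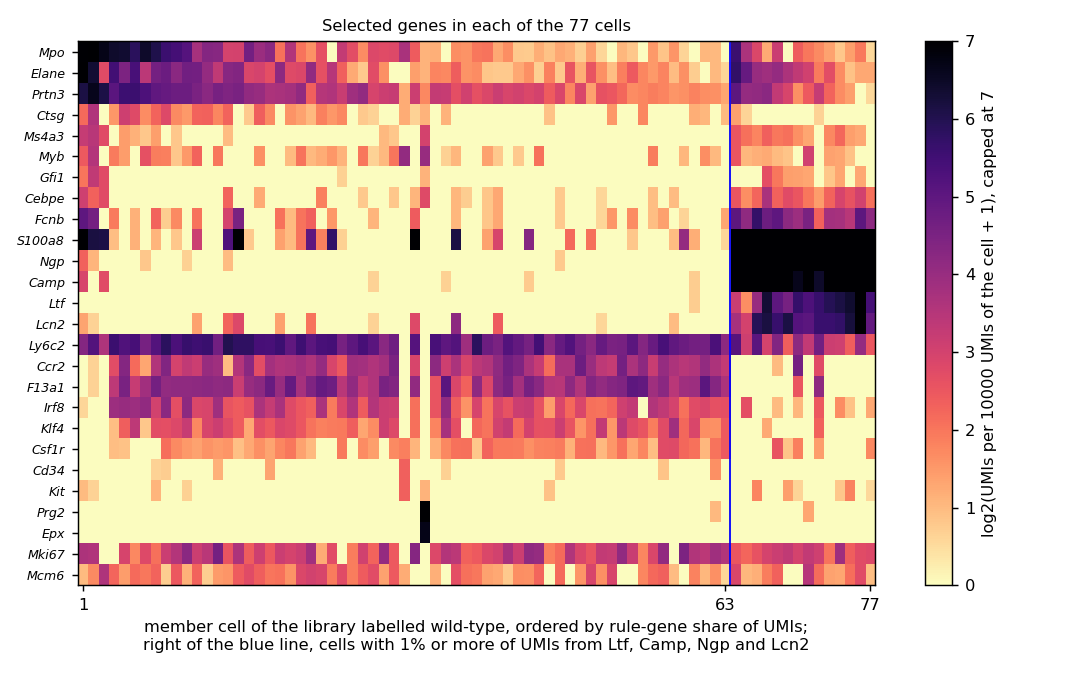
UMIs per 10000 UMIs of the cell, as log2(value + 1) capped at 7, for 26 genes (rows) in the 77 selected cells of the library labelled wild-type (columns), ordered by the share of UMIs from the 5 selecting genes; right of the blue line are the 14 cells with secondary granule RNA. Ccr2, F13a1, Irf8 and Klf4 fill most columns on the left, and Ngp, Camp, Ltf and Lcn2 those on the right.

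Set beside the 114 neutrophils, the 14 cells had like levels of Camp and Ngp and little or no RNA of several genes of mature neutrophils. Camp stood at 21127 CPM in the 14 cells and 16740 CPM in neutrophils, and Ngp at 33866 and 37027. Lcn2 stood at 4924 and 8460 CPM and Ltf at 4872 and 11835. Fcnb was higher in the 14 cells (1831 against 282 CPM). The gelatinase granule gene Mmp9 was at 0 in the 14 cells and at 1184 CPM in neutrophils, the collagenase gene Mmp8 at 23.2 and 1932, Retnlg at 17.4 and 1691 and the chemokine receptor gene Cxcr2 at 81.1 and 359 CPM, although these last 4 genes also served to choose the neutrophils. The summed level of 21 S phase genes was 3493 CPM in the 14 cells and 1308 CPM in neutrophils.

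A few single cells stood apart. One cell of 8599 UMIs held 599 of the 601 Prg2 UMIs, all 88 of Epx and all 30 of Prg3, the genes of eosinophil granule proteins, with UMIs of all 5 selecting genes, 13 of Myb and none of the 5 monocyte genes. Another, of 7445 UMIs, held 3 UMIs each of Cd34 and Kit, 12 of Myb and 9 of Mpo, and also no UMI of the monocyte genes. The 2 cells with the highest Mpo levels had 245 and 227 Mpo UMIs, 6 and 16 of Gfi1, 15 and 7 of Cebpe, 61 and 42 of Fcnb, and 0 and 1 of Ccr2. Of the secondary granule genes, these cells held 8 and 2 Ngp, 13 and 0 Camp, 3 and 1 Lcn2 and no Ltf UMIs, with 478 and 126 of S100a8. The basophil and mast cell genes Cpa3 and Ms4a2 had 7 UMIs each, in 2 cells each, and none in monocytes.

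Against the monocytes of the same library, and leaving out the genes used to choose either group, 620 of 8951 genes with at least 100 UMIs were at least 2-fold higher in the selected cells (6.93%) and 1088 were at least 2-fold lower (12.2%). The limit of 100 UMIs is on both groups together, and the monocytes held 12281919 UMIs against 993621 in the selected cells, so a gene could pass it through the monocytes alone while a gene found mainly in the selected cells could miss it. The counts of higher and lower genes are therefore not to be read against each other. With no such limit, 4871 of 15205 genes were higher, with counts under 3 set to 3, and 1196 lower. Over the fewer UMIs of the selected cells this floor of 3 stands at a higher CPM than over those of the monocytes. Genes near 0 in both groups can thus count as higher through the floor alone, and 4871 is not read as a result. The median log2 ratio of all 8951 genes was -0.06. Without the 14 cells with secondary granule RNA, 671 of 8915 genes were higher (7.53%) and 1126 lower (12.6%). Depth moved with the comparison. Against the 378 monocytes with at least 10000 UMIs, whose median depth of 13044.5 UMIs was near that of the selected cells, 282 of 7214 genes were higher (3.91%) and 812 lower (11.3%), of which 264 and 666 were also past 2-fold against all monocytes.

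Outside the selecting genes, members of the primary granule list differed in their levels. Of its 11 genes 7 were measured, 1 was at least 2-fold higher (6.93% of all genes) and none lower (12.2% of all genes). The median log2 ratio was 0.01 over these 7 (0.35 over 9 without the upper gene limit). Serpinb1a, an inhibitor of neutrophil serine proteases, was the higher one (196 CPM, 170 to 226, against 26.8), Srgn (serglycin, the granule proteoglycan) was at 243 against 224 CPM and Ctsc (cathepsin C, which activates the granule proteases) at 479 against 642. Under 100 UMIs over both groups and so outside the count, Nkg7 had 70 UMIs in the 77 cells (70.4 against 0.814 CPM), Cst7 43 (43.3 against 1.47) and the protease gene Prss57 40 (40.3 against 0.733). Bpi had no UMI in either group.

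Of the later granule list 11 of 14 genes were measured, 9 were at least 2-fold higher (6.93% of all genes) and 1, Mmp8, was lower (12.2%). S100a8 and S100a9, the calprotectin subunits, stood at 10633 and 10938 CPM against 121 and 96.2 CPM in monocytes. Most of these counts came from the 14 cells: without them 5 genes were at least 2-fold higher and 4 lower. Camp, Ngp and Ltf then stood at 21.9, 17.1 and 1.22 CPM, below the 62.9, 121 and 37.8 CPM of the B lymphocytes, whereas Fcnb (240 CPM against 8.55) and S100a8 (1646 CPM against 121) stayed higher. Of the UMIs in the 63 cells, 2 cells held 53.3% for S100a8 and 52.3% for Fcnb, whose median was 0.

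Genes of the dividing cell were higher against all monocytes, and those of S phase also against monocytes of like depth. Of 18 measured S phase genes, 18 were at least 2-fold higher in the selected cells (6.93% of all genes), with a median log2 ratio of 2.27 beside -0.06 for all genes. That median was 1.40 without the upper gene limit and 2.79 as a mean over cells. Mcm6, a subunit of the replicative helicase, stood at 254 CPM (223 to 287) against 33.1 CPM in monocytes, a log2 ratio of 2.94 (2.70 to 3.17), and had a UMI in 67 of 77 cells. Cdc45, which loads with that helicase, stood at 63.4 against 8.47 CPM. Of 27 measured G2/M genes, 22 were at least 2-fold higher, none was lower, and the median was 1.25. Top2a, topoisomerase II alpha, stood at 994 against 369 CPM, and Mki67, the proliferation antigen, at 849 against 424 CPM. Mki67 was also at 538 CPM in B lymphocytes, in which their own RNA and free RNA cannot be told apart. Against the monocytes with at least 10000 UMIs, 16 of 18 S phase genes were still at least 2-fold higher (median 1.54) but 0 of 27 G2/M genes were (median 0.36).

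**Figure D4:**
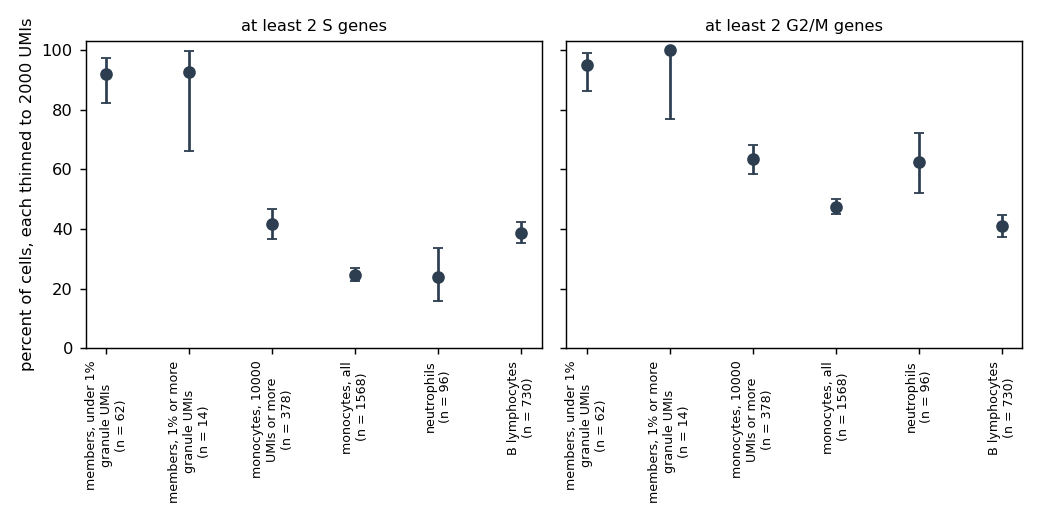
Percent of cells with UMIs of at least 2 S phase genes (left) or 2 G2/M genes (right) after each cell was thinned to 2000 UMIs, with exact 95% binomial intervals that cover counting error only; all groups are from the library labelled wild-type. For S phase genes the selected cells lie at 91.9% and 92.9%, above the 41.5% of deep monocytes and the 38.8% of B lymphocytes.

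At an equal depth of 2000 UMIs, 70 of 76 selected cells had UMIs of at least 2 S phase genes (92.1%, 83.6 to 97.0), against 24.6% of 1568 monocytes (22.5 to 26.8), 41.5% of the 378 deep monocytes (36.5 to 46.7), 24.0% of 96 neutrophils and 38.8% of 730 B lymphocytes (35.2 to 42.4). At least 2 G2/M genes were found in 73 of 76 selected cells (96.1%, 88.9 to 99.2), in 47.5% of monocytes, 63.5% of deep monocytes, 62.5% of neutrophils (52.0 to 72.2) and 41.0% of B lymphocytes. The numbers of shallower cells left out were 1 selected cell, 19 monocytes, 18 neutrophils and 220 B lymphocytes. Unthinned, the G2/M shares were 98.7% of selected cells, 82.5% of monocytes, 97.6% of deep monocytes, 72.8% of neutrophils and 59.8% of B lymphocytes. Of the 14 cells with secondary granule RNA, 13 had at least 2 S phase genes and 14 at least 2 G2/M genes when thinned.

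Genes for making ribosomes and for folding secreted proteins are set beside the 6.93% of all genes that were at least 2-fold higher. Of 18 measured ribosome biogenesis genes 16 lay above the monocytes and 5 passed 2-fold (7 without the 14 cells, and 2 of 14 against deep monocytes), with a median log2 ratio of 0.78. Nop56, of the box C/D particle, stood at 83.5 against 30.04 CPM, Dkc1 (dyskerin) at 46.3 against 21.0 and Npm1 (nucleophosmin) at 820 against 608. B lymphocytes had 75.9 CPM of Nop56 and 56.8 CPM of Dkc1, close to or above the selected cells. Of 29 genes for folding and secretion in the endoplasmic reticulum, 26 were above, where 46.5% of all 8951 genes were, and 2 passed 2-fold, a share near the 6.93% of all genes, with a median of 0.47. These were Ddost, of the oligosaccharide transferase (188 against 93.8 CPM), and Pdia4, a disulfide isomerase (123 against 60.3), and against deep monocytes 0 of 29 passed. Hsp90b1, a chaperone, stood at 995 against 703 CPM. In the 14 cells both lists were low: their summed levels were 1014 and 4380 CPM, against 2473 and 9009 CPM in the 63 cells.

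Among transcription factors 3 of 20 measured genes were at least 2-fold higher (6.93% of all genes) and 5 lower (12.2% of all genes), and against deep monocytes 2 and 4 of 18. Myb stood at 152 CPM (129 to 178) against 4.64 CPM (3.52 to 6.01), 32.7-fold higher, and had a UMI in 44 cells. Its log2 ratio of 5.03 was 3.67 (3.42 to 3.92) without the upper gene limit. With at least 4 of the selecting genes it was 5.54, and without barcodes carrying markers of other cell types 6.32. Cebpe stood at 126 against 6.43 CPM, with 440 CPM in the 14 cells with secondary granule RNA and 59.7 CPM in the other 63. Of its UMIs in the 63 cells, 2 cells held 44.9%. Sox4 stood at 21.1 against 8.55 CPM, with 32.0 CPM in B lymphocytes. Gfi1, with under 100 UMIs, was at 42.3 CPM against 0.651, and 2 cells held 52.4% of its UMIs. Myc, likewise, was at 27.2 against 3.01 CPM but at 34.8 CPM in B lymphocytes. Factors shared by both lineages lay within 2-fold, with Spi1 (PU.1) at 306 against 413 CPM, Cebpa at 52.3 against 65.1 and Runx1 at 185 against 144. Irf8 (608 against 424) and Klf4 (399 against 245) were also within 2-fold. Among the lower ones were Klf2 (49.3 against 238), Nr4a1 (10.1 against 69.5), Irf4 (3 UMIs, 3.02 against 31.7 CPM) and Egr1 (no UMI, against 8.47 CPM, 2.80-fold lower with a floor of 3 counts over the group, where the exact interval of the log2 ratio ends at -1.16).

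Of the 13 measured receptor and surface genes none was 2-fold higher, and 3 were lower (12.2% of all genes), among them Csf1r (183 against 491 CPM). Against deep monocytes 1 of 11 was lower, with a median of -0.34. The receptors for granulocyte-macrophage and granulocyte colony-stimulating factors lay within 2-fold of the monocytes, with Csf2ra at 191 against 179 CPM and Csf3r at 86.6 against 106 CPM. None of the 6 genes of the NADPH oxidase, the enzyme of the oxidative burst, passed 2-fold. Of these, Cybb stood at 1315 against 2152 CPM and Ncf1 at 362 against 212 CPM.

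Transcripts of mature monocytes were lower in the selected cells. Of 18 maturation genes 13 were at least 2-fold lower (12.2% of all genes) and none was higher, with a median log2 ratio of -1.34. That median was -2.01 with at least 4 of the selecting genes and -2.30 without barcodes carrying markers of other cell types. Without the upper gene limit it was -1.14. Cx3cr1, the fractalkine receptor, stood at 71.5 CPM (55.8 to 90.1) against 421 CPM, the chemokine gene Ccl6 at 143 against 824, the lectin gene Clec4a3 at 62.4 against 406 and Ctss (cathepsin S) at 464 against 1443. Lyz2, lysozyme, was within 2-fold at 4737 against 7610 CPM. The B lymphocytes, which should make neither, had 41.1 CPM of Cx3cr1 and 101 CPM of Ccl6. Against deep monocytes 10 of the 18 genes were at least 2-fold lower.

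Genes of antigen presentation, interferon response and early response were lower as well, where 12.2% of all genes were at least 2-fold lower. Of 7 MHC class II genes 6 were at least 2-fold lower, Cd74 at 280 against 1276 CPM and H2-Aa at 167 against 659, and B lymphocytes, which present antigen, had 4649 CPM of Cd74. The list median of -1.89 was -3.31 without the highest Scrublet scores and -3.15 without barcodes carrying markers of other cell types. It was -1.52 without the upper limit on genes. Of 14 interferon-stimulated genes 9 were at least 2-fold lower and none higher, with a median of -1.71, which was -0.81 without the upper limit on genes. Oasl2 stood at 8.05 CPM (3.48 to 15.9) against 69.5, and Irf7, the factor that amplifies the response, at 9.06 (4.14 to 17.2) against 49.99. In B lymphocytes these stood at 12.1 and 16.4 CPM. Of 11 measured immediate early genes 7 were lower, with a median of -1.20 (-0.93 without the upper limit on genes and -0.61 with at least 4 selecting genes), Junb at 72.5 against 208 CPM and Atf3 at 0 UMIs against 19.1 CPM, 6.34-fold lower with the floor of 3 counts, where the exact interval ends at a log2 ratio of -2.35. Against deep monocytes 6 of 7, 6 of 11 and 4 of 8 measured genes of these lists were at least 2-fold lower.

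Erythroid and macrophage markers moved in the same direction as the lower genes, and their part in these was not tested. All 5 erythroid markers, among them Klf1, Ermap, Rhag and Kel, were at least 2-fold lower, with a summed level of 115 CPM in the selected cells, 410 in monocytes and 892 in B lymphocytes. Rhag and Kel each stood at 26.2 CPM in the selected cells, against 70.1 and 63.5 CPM in monocytes. Of the 7 macrophage markers, all 5 that did not serve in the choice of cells were also lower, with a summed level for the list of 1621, 3835 and 4877 CPM. Vcam1 (622 CPM) and C1qa (323 CPM) were its most abundant genes. Of the dendritic cell, plasmacytoid dendritic cell, T, NK, megakaryocyte and plasma cell markers, Xcr1, Clec9a, Siglech, Cox6a2, Klk1, Cd3e, Cd3g, Trac, Trbc2, Ncr1, Klrb1c, Gzma, Gp9, Gp1bb, Jchain, Mzb1, Tnfrsf17 and Igha were at 0 in the selected cells. The NK list nonetheless summed to 71.5 CPM against 5.54 in monocytes, nearly all of it from Nkg7, which is also on the primary granule list, and the megakaryocyte list to 9.06 against 7.08 CPM. Other genes of these lists had UMIs too. The plasmacytoid dendritic cell list summed to 50.3 against 93.7 CPM in monocytes and the dendritic cell list to 11.1 against 73.2. The T cell list stood at 2.01 against 4.64 CPM and the plasma cell list at 1.01 against 2.12. The eosinophil list summed to 730 against 2.28 CPM and the basophil and mast cell list to 19.1 against 0.0814 CPM, each mostly from a few cells. Among 1088 lower genes, 57.1% were as high or higher in B lymphocytes than in monocytes, against 53.3% of all 8951 genes.

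In the heme synthesis list the first enzyme went against the others. Alas1, the housekeeping form of aminolevulinate synthase, stood at 88.6 CPM (71.0 to 109) against 22.5 CPM in monocytes and 13.6 CPM in B lymphocytes, and 6 of the other 7 genes were at least 2-fold lower (4 without the 14 cells). The list median of -1.06 was -0.69 without the upper gene limit, -0.80 without the highest Scrublet scores and -0.81 as a mean over cells. Against deep monocytes it was -1.64, with 7 of 8 genes at least 2-fold lower. Fech, ferrochelatase, was among the genes lower against all monocytes (154 against 317 CPM), and it stood at 557 CPM in B lymphocytes.

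Among genes with at least 100 UMIs over both groups, most of the 20 with the greatest ratios were carried by the 14 cells, and Prg2 by the single cell described above. Nkg7, Gfi1 and Prss57, under that limit, are not ranked here. Besides genes already named, the 20 held Wfdc21, Lrg1, Gca, Syne1, Ly75, Rflnb and Ets1, each higher in the 14 cells than in the 63 by 2.81 (Rflnb) to 4.78 (Wfdc21) on the log2 scale, and Cdca7, a target of MYC (110 against 8.14 CPM in monocytes), Igfbp4 (149 against 13.5) and Ncam1 (54.3 against 4.64), which were at 106, 123 and 40.2 CPM in the 63 cells. Cdca7 was found in 49 cells and Igfbp4 in 50. Among the lowest ratios were those of Sirpb1c (9.06 against 145 CPM, a log2 ratio of -4.00), Ms4a8a (5.03 against 77.3) and Slfn5 (34.2 against 385). These stood at 8.43, 1.08 and 65.7 CPM in B lymphocytes. Cd40 had no UMI in the selected cells and 22.2 CPM in monocytes, 7.36-fold lower with the floor of 3 counts, where the exact interval ends at a log2 ratio of -2.57, but the B lymphocytes, which make Cd40, had 52.3 CPM.

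**Figure D5:**
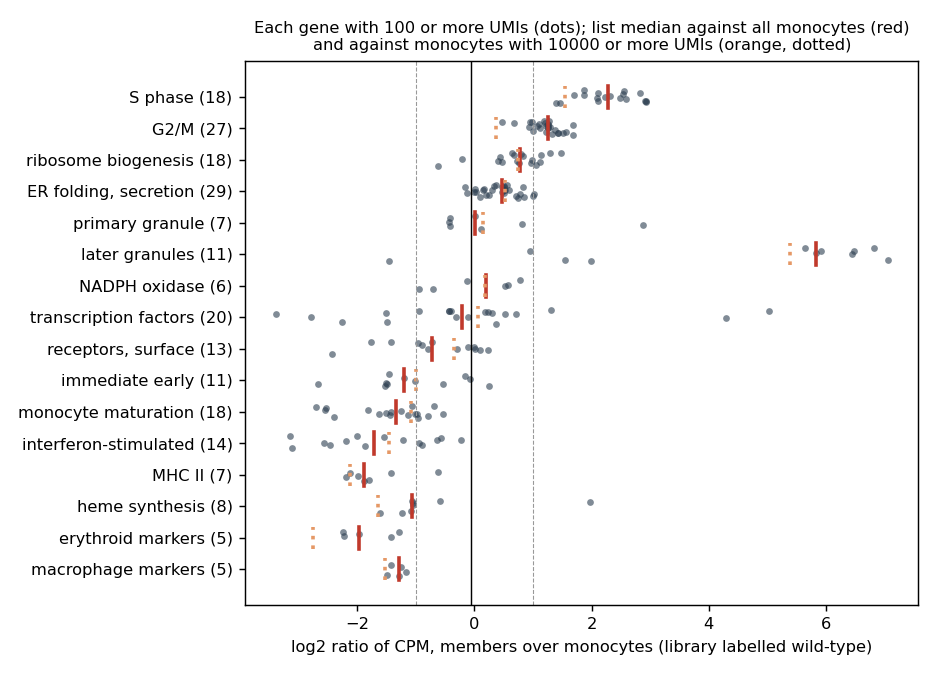
log2 ratio of CPM in selected cells over monocytes of the library labelled wild-type for each list gene with at least 100 UMIs (dots, number of genes in parentheses), with the list median against all monocytes (red bar) and against monocytes with at least 10000 UMIs (dotted orange bar); the black line is the median of all genes and the dashed lines mark 2-fold. The S phase genes lie right of the 2-fold line, and the MHC II, interferon and monocyte maturation medians lie left of it together with the erythroid and macrophage markers.

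The library labelled SCD held 3 selected cells of 12280 kept barcodes (0.0244%, 0.00504 to 0.0714), beside 77 of 19419 (0.397%, 0.313 to 0.495) in the library labelled wild-type. Its monocytes numbered 1404 (11.4% of kept barcodes) beside 1587 (8.17%), with median depths of 6420.5 and 6784 UMIs. Of barcodes with at least 3 monocyte genes, 2 of 1500 carried at least 3 of the selecting genes (0.133%, 0.0162 to 0.481), beside 61 of 1710 (3.57%). Over all kept barcodes, Mpo stood at 0.663 CPM under the label SCD and 15.8 CPM under the label wild-type, Elane at 0.431 and 12.98 CPM and Prtn3 at 1.002 and 20.2 CPM. The neutrophils numbered 13 and 114. With 1 mouse per label, differences between the genotypes, the animals and the bead enrichments cannot be told apart.

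These 3 cells also differed in secondary granule RNA. The first (7430 UMIs) had 8 Mpo, 30 Ly6c2, 9 Ccr2 and 6 F13a1 UMIs and none of Ngp, Camp, Ltf or Lcn2. The second (14586 UMIs) had 12 Elane, 76 Ly6c2, 29 F13a1, 14 Irf8 and 16 Klf4 UMIs. The third (12608 UMIs) had 8.32% of its UMIs from the 4 secondary granule genes, with 456 Ngp, 12 Cebpe and 34 Fcnb UMIs and none of Ccr2 or F13a1. They had UMIs of 15, 19 and 18 of the 21 S phase genes, where the median of the 77 cells was 15.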

How the data were processed

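The authors deposited whole-number UMI counts per gene and barcode for each library, with 26124 genes. The submitters' processing notes name Cell Ranger 4.0.0 and GRCm38.p6, while the matrix headers give software version 3.1.0. Each file holds 1 library, and its values are not normalized. Counts were read with Python 3.11.15 and scipy 1.17.1, and summed over the cells of a group to give CPM. Levels carry exact Poisson intervals, shares Clopper-Pearson intervals and ratios exact conditional intervals, all at 95% and for counting error only. A count under 3 was set to 3 for ratios. Genes past 2-fold were counted among those with at least 100 UMIs, and no p-value was computed, since each label has 1 library. Barcodes meeting 2 comparison rules (66 and 97) were left out. Scrublet (scanpy 1.11.5) called 0 of 19419 barcodes automatically in the library labelled wild-type, so its call did not work there, and no barcode was removed as a doublet; 12 of the 77 cells were in the highest 10% of scores. On simulated counts for this comparison (8951 genes, 200 changed), the direction was recovered for 99.0% and intervals held the true ratio for 96.2%. Of the unchanged genes, 1.06% passed 2-fold. The simulated counts were Poisson draws of the group sums, the model that the intervals assume, without variation between cells. These shares thus check the calculation and do not carry over to genes whose UMIs lie in few cells. The cells, gene lists and comparisons were chosen with earlier results of these data known. Named genes are those of the lists and the 20 highest and 20 lowest ratios. A few genes of the lists are not reported here.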

Additional observations from a re-analysis of the deposited data

Results flagged for a closer look

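Outside the cells described, 31 barcodes of the library labelled wild-type had at least 3 of the selecting genes but more than 5000 detected genes, and were thus in no comparison of the report; 2 of them had at least 1% of UMIs from the secondary granule genes and they ranged from 17436 to 47207 UMIs. Whether they hold more than 1 cell was not tested. Hbb-bs, a gene that the SCD label gives as deleted on both alleles, stood at 55491 CPM in erythroid barcodes of that library, against 110 CPM in the library labelled wild-type. In the selected cells it was at 173 CPM (6 UMIs) and 19.1 CPM (19 UMIs). The cause was not tested.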

How the results depend on the processing

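No paired analysis was possible because each label has 1 library. The share of kept barcodes that were selected, 0.397%, moved to 0.526% without an upper gene limit, 0.595% with under 10% mitochondrial UMIs (the same 77 cells of fewer barcodes), 0.206% with at least 4 of the 5 genes and 0.0618% without barcodes carrying at least 3 markers of erythroid, B, T or macrophage cells. That last setting left 12 cells and 239 monocytes, mostly through macrophage markers, which 65 of the 77 cells carried, and gave 121 genes higher and 440 lower of 2389, with a median log2 ratio of all genes of -0.19. The 620 higher genes became 282 against monocytes with at least 10000 UMIs, and the 1088 lower genes became 714 without the upper gene limit. Without the filter on UMIs 4871 genes were higher, but the floor of 3 counts stands at a higher CPM in the selected cells than in the monocytes. That count can therefore rise through the floor alone. The share with at least 2 G2/M genes, 96.1%, became 100% with at least 4 of the 5 genes and 88.3% when thinned to 1000 UMIs. Without the 14 cells the log2 ratios of Camp, Ngp and Ltf reversed to -0.34, -1.95 and -2.22. For the 40 genes with the highest and lowest ratios, 110 of 556 ratios over all settings moved out of the interval of the main setting, besides these 3. Without barcodes carrying markers of other cell types 26 of 37 moved, and without the upper gene limit 19 of 40. The setting without the 14 cells, that without the Prg2 cell, that without the singly described cells and the depth limit on monocytes were chosen after seeing the data. Of 190 list medians under these settings 175 moved by under 0.5 on the log2 scale and none that was past 2-fold changed sign. Without the upper gene limit, however, the medians of the G2/M, heme synthesis, interferon and immediate early lists fell within 2-fold (0.88, -0.69, -0.81 and -0.93) and that of S phase was 1.40. The heme synthesis median was also within 2-fold without the highest Scrublet scores (-0.80) and as a mean over cells (-0.81), the immediate early one with at least 4 of the 5 genes (-0.61), the secondary granule one without the 14 cells (0.68) and the G2/M one against deep monocytes (0.36). Depth limits the rarer genes: with 993621 UMIs in the 77 cells, a gene without a UMI has a 95% Poisson upper limit of 3.71 CPM, and the floor of 3 counts used for ratios stands at 3.02 CPM. The cause of these changes was not tested beyond what the settings themselves state.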
